A study of Mus musculus with 26 samples.

Results

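The genes described here are Pkhd1, Pkd1, Pkd2, Bicc1, Cys1 and Ift88, which are mutated in polycystic disease of the kidney and liver or in mouse models of it. They were chosen by name, as every non-control probe that the array design assigns to one of these symbols. All 6 genes were on the array, with 12 of its 41174 non-control probes, among 27827 gene names in all. Pkhd1, Pkd2 and Bicc1 had 3 probes each, and Pkd1, Cys1 and Ift88 had 1 each. All 12 probes passed the filter on dim probes, which kept 39595 probes that were well above background on at least 2 arrays.

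The study followed mouse liver during feeding of DDC, a dihydrocollidine compound that injures bile ducts and brings on a ductular reaction. Every mouse was Foxl1-Cre; RosaYFP, aged 6 to 10 weeks, so the controls carried the Cre transgene and the reporter as well. In such mice a cell that has expressed the Foxl1-Cre transgene, and its progeny, carries YFP, so the YFP-positive fraction is defined by Cre activity and not by a duct marker. Of 26 samples, 20 with scanner files were used, 1 array each.

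The diet was given for 3, 7 or 14 days, and non-parenchymal liver cells without the leukocyte marker CD45 were then sorted by YFP into a positive and a negative fraction. The YFP-positive groups had 4, 3 and 2 arrays at days 3, 7 and 14, and the YFP-negative groups had 3 arrays at each day. The day 0 group, 2 arrays, was total non-parenchymal cells of mice on chow, for which the labels describe neither a YFP sort nor removal of CD45-positive cells. Diet, sorting and CD45 selection therefore cannot be told apart in any comparison with day 0. The labels do not say whether the arrays of a group came from separate animals, so p-values measure the spread between these arrays, which may be technical.

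The primary cilium is a single, non-motile projection that senses flow and signals at the cell surface. In the liver, cholangiocytes, the cells lining bile ducts, carry one into the duct lumen, whereas hepatocytes as a rule have none. The polycystins and fibrocystin are membrane proteins of this cilium, and loss of their function leads to cysts of kidney tubules and bile ducts.

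Pkhd1 encodes fibrocystin, the gene of autosomal recessive polycystic kidney disease with its duct plate malformation, and its brightest probe showed the largest difference of the 12 between the fractions over the mean of days. At day 3 alone, and with slide as a fixed block, that of Cys1 was larger.

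RefSeq windows of 250 bases before the start site (GRCm38.p6) were held for 5 of the 6 genes, all but Bicc1, among 32851 windows. The X-box motif, bound by RFX factors of ciliated cells and searched on both strands as GTNNCC and GNAAC with any 3 bases between them, was in 590 windows (1.8 percent) and in none of the 5. That says only that these letters are not in those windows.

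The sequences of a pair of probes are shown. The second Pkhd1 probe, which starts at base 11875 of its transcript, is given because its values spread the most among the Pkhd1 probes. The Ift88 probe, at base 2381 of its transcript, is given because its 60 letters span 305 bases of the mm9 genome, so that its match there is split.

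Pkhd1 A_52_P576007: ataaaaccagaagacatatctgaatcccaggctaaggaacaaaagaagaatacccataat

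Ift88 A_51_P503026: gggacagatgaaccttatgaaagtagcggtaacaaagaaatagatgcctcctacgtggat

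By the positions in the files (mm9), the Pkhd1 probes lay on chromosome 1, minus strand, at 20048047 to 20048106, 20060520 to 20060579 and 20583266 to 20583325. The Ift88 probe lay on chromosome 14 at 58135886 to 58136190, the Pkd1 probe on chromosome 17 at 24733161 to 24733220, and the Cys1 probe on chromosome 12 at 25350720 to 25350779. The Bicc1 probes lay within chromosome 10, at 70385795 to 70385854, 70387202 to 70387261 and 70387911 to 70387970. The Pkd2 probes lay on chromosome 5, at 104929331 to 104929390, 104932529 to 104932588 and 104934662 to 104934721. Exons and untranslated parts of these positions were not assigned here.

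A level here is the log2 of a probe's processed signal, from which the 75th percentile over the spots on that array was subtracted, so a spot at 0 is as bright as that percentile and a difference of 1 is a doubling. Levels are compared between arrays for 1 probe, never between probes. Between 81.0 and 91.2 percent of an array's spots were well above background, and of the 240 spots of the 12 probes over all arrays 0 were saturated. Among defining markers, the duct genes Krt19 and Epcam, the stellate genes Col1a1 and Pdgfrb, the endothelial genes Pecam1 and Cdh5 and the hepatocyte gene Alb were all well above background on the 20 arrays. No defining marker was thus absent, and since most spots pass this limit it does not tell the cell types apart.

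Several arrays stood apart from their group mates. Among them by the biliary marker mean were YFP-negative day 3 array 3 (0.51 against -1.93 and -1.21) and YFP-negative day 14 array 3 (0.85 against -1.11 and -0.78). YFP-positive day 7 array 1 stood at 2.47 against 0.74 and 0.83. The macrophage marker mean of YFP-negative day 7 array 1 was -0.60 against 3.86 and 3.73. A pair in the YFP-positive day 3 group was singled out. On array 3 of the YFP-positive day 3 group the mean of 15 biliary marker genes was -0.69, against 1.35 to 2.71 on the other 3 arrays of that group and 0.51 on the highest YFP-negative array of that day. Array 4 of the same group correlated with its 3 group mates at 0.76 to 0.81 over all probes, against 0.86 to 0.95 for all other pairs within groups. Results are therefore given with and without each array of that pair. Array 3 was picked for its low biliary marker mean. Within the 9 YFP-positive arrays that mean correlated with the brightest probes of Bicc1, Cys1 and Pkhd1 at r = 0.97, 0.95 and 0.90. A larger difference for these genes without array 3 follows in part from that choice and is no separate support. Within the 9 YFP-negative arrays the biliary marker mean correlated with the same probes at r = 0.92, 0.85 and 0.91. Array 3 of YFP-negative day 3 and array 3 of YFP-negative day 14 had the highest such mean of their groups. A larger difference for these genes without either of them is likewise no separate support.

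Over the mean of days 3, 7 and 14, 11 of the 12 probes had a positive difference of YFP-positive from YFP-negative cells, as did 50.5 percent of all probes. The median difference over the 12 was 2.16 on the log2 scale, but none of them passed an adjusted p of 0.05 in limma. Over all 39595 probes the median difference was 0.01, and 0.654 percent passed. In the fit as reported, the differences fell into 3 sizes. They were above 2 for the probes of Pkhd1, Cys1 and Bicc1, near 1 for Ift88, and between -1.07 and 0.79 for Pkd1 and Pkd2. At an unadjusted p under 0.05, 9 of the 12 probes, of 5 genes, were higher, where 12.6 percent of all probes were. A difference above 1 was found for 8 of the 12 probes and for 11.3 percent of all probes. The sizes moved with the processing. With normexp background correction, Pkhd1 A_52_P576007 and A_51_P322482 and Bicc1 A_52_P867663 fell below 2, at 1.66, 1.56 and 1.74. With slide as a fixed block, Pkhd1 A_51_P322482 was at 1.15 and Bicc1 A_52_P867663 at 1.97. In bulk samples, fewer cells of a type and less RNA per cell cannot be told apart.

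**Figure D1:**
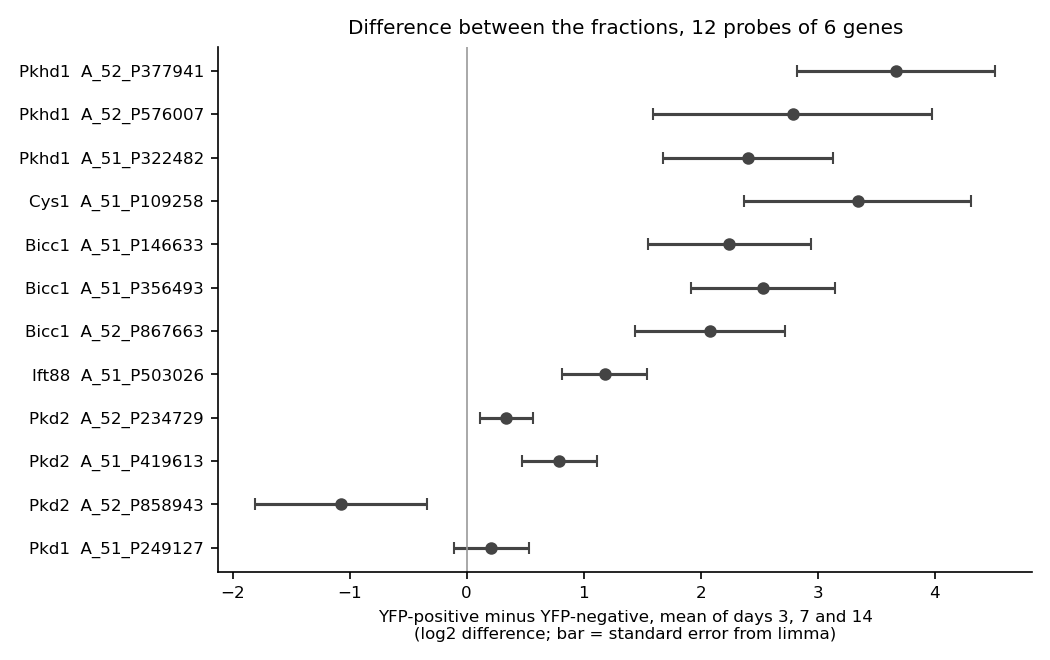
Log2 difference between YFP-positive and YFP-negative cells over the mean of days 3, 7 and 14 (horizontal axis) for each of the 12 probes (rows, grouped by gene); points are limma estimates and bars their standard errors. The 7 probes of Pkhd1, Cys1 and Bicc1 lie between 2.08 and 3.67, Ift88 at 1.18, and the Pkd1 and Pkd2 probes between -1.07 and 0.79.

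For Pkhd1, the brightest probe, A_52_P377941, measured -6.10, -1.74 and -5.44 in YFP-negative cells at day 3, and -1.27, -0.03, -2.72 and 2.29 in YFP-positive cells. At day 7 it measured -2.01, -3.72 and -6.05 in YFP-negative cells against 0.94, -0.57 and -1.22 in YFP-positive cells. At day 14 it measured -5.41, -2.18 and -0.99 in YFP-negative cells against 0.62 and 0.41 in YFP-positive cells. The fractions overlapped at day 3, where YFP-negative array 3 was above YFP-positive array 3, and did not overlap at days 7 and 14.

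The difference for this Pkhd1 probe was 4.00 ± 1.34 (SE) at day 3, 3.64 ± 1.43 at day 7 and 3.38 ± 1.60 at day 14. Over the mean of days it was 3.67 ± 0.84, or 12.7-fold, with an adjusted p of 0.0565 in limma. With normexp background correction it was 2.70, or 6.49-fold (adjusted p = 0.103 in limma). Of the pair singled out in the YFP-positive day 3 group, leaving out array 3 gave 3.93 (adjusted p = 0.0193 in limma) and leaving out array 4 gave 3.37 (adjusted p = 0.0661 in limma). The probe also passed with array 3 of YFP-negative day 3 left out (4.12, adjusted p = 0.0387) or array 3 of YFP-negative day 14 (3.98, adjusted p = 0.0496). Those arrays had the highest biliary marker mean of their groups, so these passes are no separate support.

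The other Pkhd1 probes lay on the same side, with 2.79 ± 1.19 for A_52_P576007 (adjusted p = 0.206 in limma) and 2.41 ± 0.73 for A_51_P322482 (adjusted p = 0.102 in limma). With array 3 of YFP-positive day 3 left out these were 3.25 and 2.67, and A_51_P322482 passed (adjusted p = 0.0426). With array 4 left out they were 2.44 and 2.09, and neither passed. The printed probe, A_52_P576007, was widely spread: YFP-negative cells ran from -8.35 to -0.03 and YFP-positive cells from -5.23 to 2.09. Its lowest value, on YFP-negative day 3 array 1, was not well above background. Across the 20 arrays the levels of the first pair of Pkhd1 probes correlated at r = 0.89, and each with A_51_P322482 at r = 0.70, as a description over arrays that share processing.

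Cys1 encodes cystin, a lipid-anchored protein of the ciliary membrane whose loss causes the cpk form of cystic kidney disease in mice. In YFP-negative cells its probe measured -9.03, -0.73 and -4.35 at day 3, -1.49, -3.78 and -3.76 at day 7, and -2.56, -2.63 and -0.45 at day 14. In YFP-positive cells it measured -0.17, -0.65, -3.08 and 2.17 at day 3, 1.22, -1.94 and -0.56 at day 7, and 0.89 and 1.69 at day 14. The fractions overlapped at days 3 and 7 and not at day 14, and the -9.03 was not well above background.

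The Cys1 difference was 4.27 ± 1.54 at day 3, 2.58 ± 1.64 at day 7 and 3.17 ± 1.84 at day 14. The day 3 value was 2.11 with YFP-negative array 1, the array of the dim spot, left out. Over the mean of days the difference was 3.34 ± 0.97, or 10.1-fold with the dim spot taken at its value (adjusted p = 0.0926 in limma). With normexp it was 2.41, or 5.32-fold (adjusted p = 0.163 in limma). Leaving out array 3 of YFP-positive day 3 gave 3.64 (adjusted p = 0.0437), array 4 of that group 3.05 (adjusted p = 0.121), and array 3 of YFP-negative day 3 gave 4.00 (adjusted p = 0.0414).

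Bicc1 encodes an RNA-binding protein with KH domains that controls messenger RNAs such as that of Pkd2, and its mutation gives cystic kidneys and bile duct defects in mice. Its brightest probe, A_51_P146633, measured -2.03, 1.53 and -2.01 in YFP-negative cells at day 3, 0.45, -1.22 and -1.62 at day 7, and 0.18, -0.11 and 1.98 at day 14. In YFP-positive cells it measured 2.48, 1.73, -1.44 and 3.26 at day 3, 2.94, 1.1 and 0.47 at day 7, and 2.36 and 3.20 at day 14. The fractions overlapped at day 3 and not at days 7 and 14, although at day 7 they were 0.45 and 0.47 at their nearest.

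Over the mean of days the Bicc1 probes differed by 2.25 ± 0.69 (A_51_P146633), 2.53 ± 0.61 (A_51_P356493) and 2.08 ± 0.64 (A_52_P867663), which is 4.75-fold, 5.78-fold and 4.24-fold. Their adjusted p in limma was 0.105, 0.0623 and 0.104. With array 3 of YFP-positive day 3 left out they differed by 2.57, 2.87 and 2.39 and all 3 passed (adjusted p = 0.0265, 0.00777 and 0.0243). With array 4 left out they differed by 2.05, 2.31 and 1.86 and none passed. A_51_P356493 also passed with array 3 of YFP-negative day 3 left out (2.84, adjusted p = 0.0424). These 3 probes, which lie within a few kilobases of one another, correlated at r = 0.93 to 0.96 over the 20 arrays.

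Ift88 encodes a subunit of the intraflagellar transport complex that carries cargo outward along the cilium, and its hypomorphic mutation causes cystic kidneys and bile duct lesions in the mouse. In YFP-negative cells it measured -0.17, 0.90 and -1.40 at day 3, -1.91, -0.94 and -1.41 at day 7, and 0.07, -0.48 and -0.44 at day 14. In YFP-positive cells it measured -0.05, 1.20, -0.14 and 1.93 at day 3, 0.20, -0.49 and -0.66 at day 7, and 0.83 and 1.56 at day 14. The fractions overlapped at day 3 and not at days 7 and 14, and both fractions were lowest on average at day 7.

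The Ift88 difference was 0.96 ± 0.57, 1.1 ± 0.61 and 1.48 ± 0.69 at days 3, 7 and 14, and 1.18 ± 0.36 over the mean of days (2.27-fold, adjusted p = 0.103 in limma). Leaving out array 3 or array 4 of YFP-positive day 3 gave 1.28 and 1.05, with an adjusted p of 0.0567 and 0.125 in limma.

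By the brightest probe of each gene over the mean of days, the polycystins differed least. Pkd2 encodes polycystin-2, a cation channel, and its brightest probe, A_52_P234729, ran from 2.06 to 3.58 in YFP-negative cells, from 2.58 to 3.73 in YFP-positive cells, and was 3.25 and 3.32 at day 0. Its difference over the mean of days was 0.34 ± 0.23 (adjusted p = 0.415 in limma). A_51_P419613 differed by 0.79 ± 0.32 (adjusted p = 0.182 in limma), with the widest gap, 1.28 ± 0.51, at day 3.

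The design assigns the third Pkd2 probe, A_52_P858943, to a separate clone, as it does Pkhd1 A_51_P322482 and Bicc1 A_51_P146633 and A_52_P867663. This Pkd2 probe went the other way, with -1.07 ± 0.73 over the mean of days (adjusted p = 0.423 in limma), and was -2.40 ± 1.16 at day 3. Its levels ran from -9.85 to -2.96 in YFP-positive cells and from -5.45 to -2.09 in YFP-negative cells, and the -9.85, on YFP-positive day 3 array 2, was not well above background. Across 20 arrays it correlated with the other Pkd2 probes at r = 0.28 and -0.27, while those correlated with each other at r = 0.70. With slide as a fixed block the brightest probe was at -0.061. The Pkd2 probes thus disagreed in direction, and no single direction is given for the gene.

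Pkd1 encodes polycystin-1, the large receptor-like partner of polycystin-2 and the gene most often mutated in the dominant disease. It ran from -2.81 to -1.04 in YFP-negative cells, from -2.23 to 0.79 in YFP-positive cells, and was -0.72 and -0.91 at day 0. Its difference was 0.85 ± 0.51 at day 3, 0.22 ± 0.55 at day 7 and -0.43 ± 0.61 at day 14, and 0.21 ± 0.32 over the mean of days (adjusted p = 0.740 in limma). The largest value, 0.79 on YFP-positive day 3 array 2, stood above the other 3 arrays of its group, and without that array the difference over the mean of days was 0.04. With slide as a fixed block the difference was -0.02 and for days 7 and 14 alone -0.11, so the direction for Pkd1 was not settled.

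**Figure D2:**
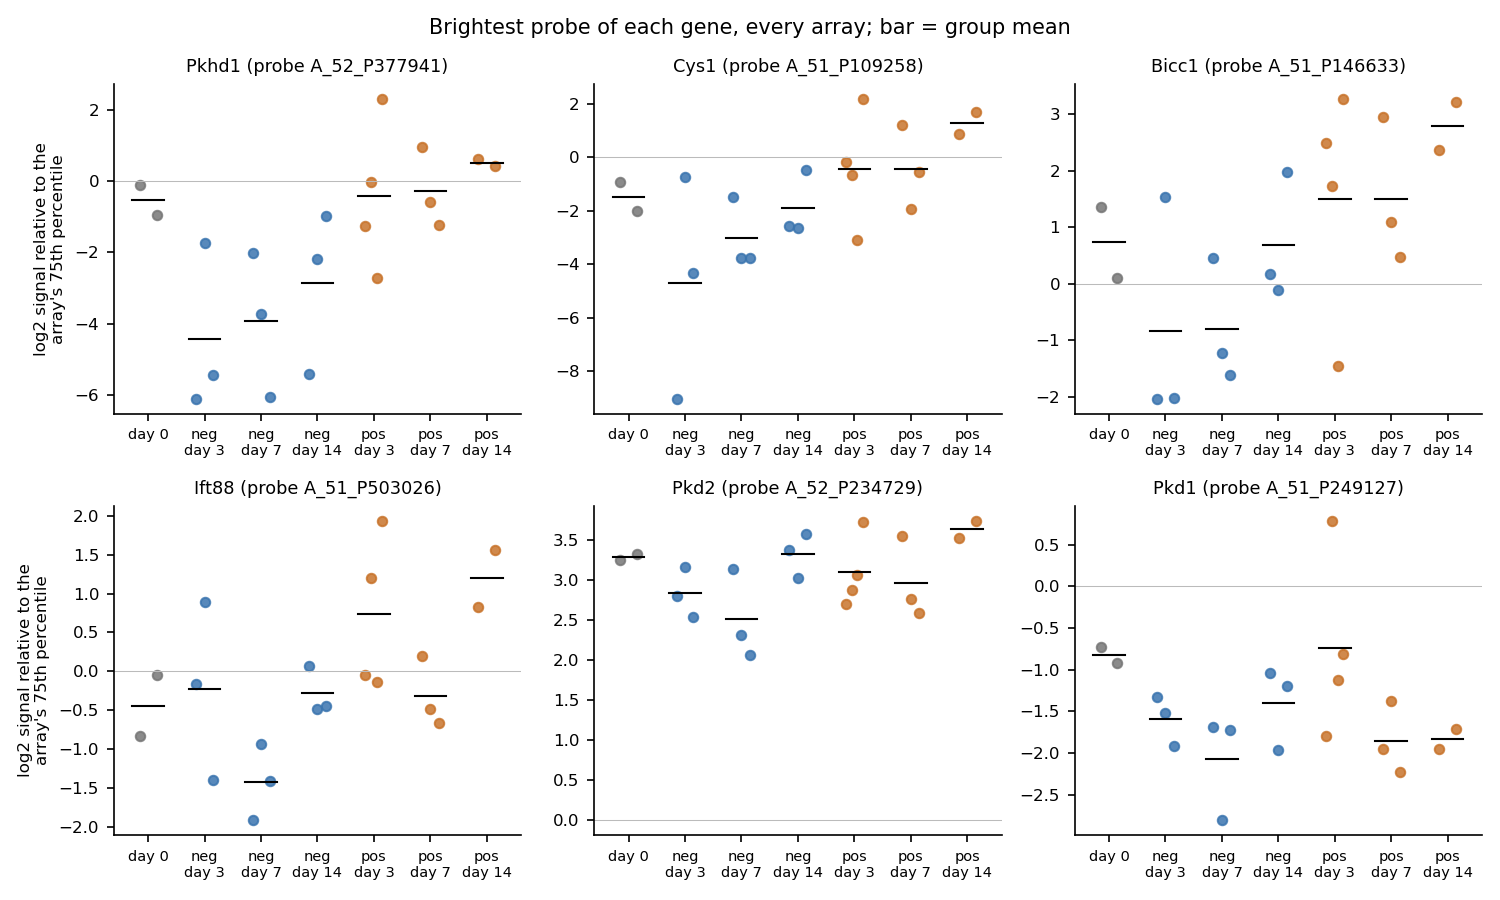
Level of the brightest probe of each gene (vertical axis, log2 signal relative to the 75th percentile of the array) on each of the 20 arrays, grouped along the horizontal axis as day 0, YFP-negative and YFP-positive cells at days 3, 7 and 14; points are arrays and bars group means. For Pkhd1 the YFP-positive means lie between -0.43 and 0.52 and the YFP-negative means between -4.43 and -2.86, while the Pkd2 means all lie between 2.51 and 3.63.

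Taken day by day, no member probe passed in limma, with adjusted p from 0.606 to 0.803 at day 3, 0.827 upward at day 7 and 0.398 to 0.884 at day 14. The share of all probes that passed was 0 percent at day 3, 0 percent at day 7 and 0.00505 percent at day 14. At an unadjusted p under 0.05, 7 of the 12 probes were higher at day 3, 3 at day 7 and 2 at day 14, against 4.66, 1.98 and 7.1 percent of all probes. Every YFP-positive array was above every YFP-negative array for 0 of 12 probes at day 3, 5 at day 7 and 7 at day 14, where this held for 3.58, 4.17 and 18.8 percent of all probes. The difference was positive at each of the 3 days for 10 of 12 probes, those of all genes but Pkd1 and without the third Pkd2 probe, and for 26 percent of all probes.

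The arrays lay on 7 slides, and only slides 1, 4 and 7 held both fractions of one day. On slide 1 the difference at day 3 was 4.83 for the brightest Pkhd1 probe, 8.87 for Cys1, 4.51 for the brightest Bicc1 probe and 0.11 for Ift88. At day 7 it was 1.43, -0.45, 0.65 and 1.43 on slide 4, and 4.83, 3.20, 2.09 and 0.74 on slide 7, in the same order. With slide as a fixed block over the mean of days, these 4 genes differed by 3.93 ± 1.3, 4.54 ± 1.5, 2.21 ± 1.05 and 0.81 ± 0.47, and none passed (adjusted p = 0.476, 0.476, 0.614 and 0.687 in limma). The 8.87 was measured against the Cys1 spot that was not well above background. On slide 7 the other Pkhd1 probes differed by only 0.46 (A_52_P576007) and -0.04 (A_51_P322482). The 4.83 on that slide was thus seen for the brightest Pkhd1 probe alone. On slide 1 these other probes differed by 7.11 and 1.57, the 7.11 again against a spot not well above background. On slide 4 both were positive, the smaller being 0.47 for A_52_P576007. On slides 1, 4 and 7 in turn, Pkd1 differed by -0.47, 0.31 and -0.51 and the brightest Pkd2 probe by -0.10, -0.37 and 0.52, without a common sign.

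Each sorted fraction was also set against day 0. These comparisons share the day 0 arrays, so their values are given side by side. The brightest Pkhd1 probe was -0.11 and -0.96 at day 0, and YFP-negative cells differed from it by -3.89 ± 1.60, -3.39 ± 1.60 and -2.32 ± 1.60 at days 3, 7 and 14, with 0.11 ± 1.52, 0.25 ± 1.60 and 1.05 ± 1.75 for YFP-positive cells. For Pkhd1 the gap between the fractions thus lay mostly below the day 0 level.

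Cys1, at -0.91 and -2.02 on day 0, differed by -3.24, -1.54 and -0.42 in YFP-negative cells and by 1.03, 1.04 and 2.75 in YFP-positive cells. The -3.24 was -1.07 with YFP-negative day 3 array 1, the array of the dim spot, left out, and -5.22 with array 3 left out. Bicc1 by its brightest probe, at 1.37 and 0.10 on day 0, differed by -1.57, -1.53 and -0.05 in YFP-negative cells and by 0.77, 0.77 and 2.05 in YFP-positive cells. For Cys1 and this Bicc1 probe the day 0 level lay between the fractions at each day, whereas the other Bicc1 probes, at 0.25 and 0.32, were above day 0 in YFP-negative cells at day 14. Ift88, at -0.84 and -0.05 on day 0, differed by 0.22, -0.97 and 0.16 in YFP-negative cells and by 1.18, 0.13 and 1.64 in YFP-positive cells. Pkd1 was below day 0 in YFP-negative cells, by -0.77, -1.25 and -0.58, and in YFP-positive cells at days 7 and 14, by -1.03 and -1.02, with 0.08 at day 3.

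No member probe passed against day 0 in limma, where 0.0379, 0.0227 and 0.0278 percent of all probes passed in YFP-negative cells at days 3, 7 and 14, and 0.0328, 0.0253 and 0.152 percent in YFP-positive cells. The lowest adjusted p was 0.407, for Ift88 at day 14 in YFP-positive cells. At an unadjusted p under 0.05 there were 2 member probes in YFP-negative cells at day 3 (5.91 percent of all probes), both of Pkhd1, and 0 at days 7 and 14 (8.12 and 10.3 percent). In YFP-positive cells there were 0 at days 3 and 7 (10.4 and 11.4 percent) and 1, Ift88, at day 14 (11.9 percent). For 7 of 12 probes YFP-negative cells were below day 0 at all 3 days, as were 48.9 percent of all probes, since the median probe differed by -0.40, -0.36 and -0.41. YFP-positive cells were above day 0 at all 3 days for 8 of 12 probes and for 20 percent of all probes.

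**Figure D3:**
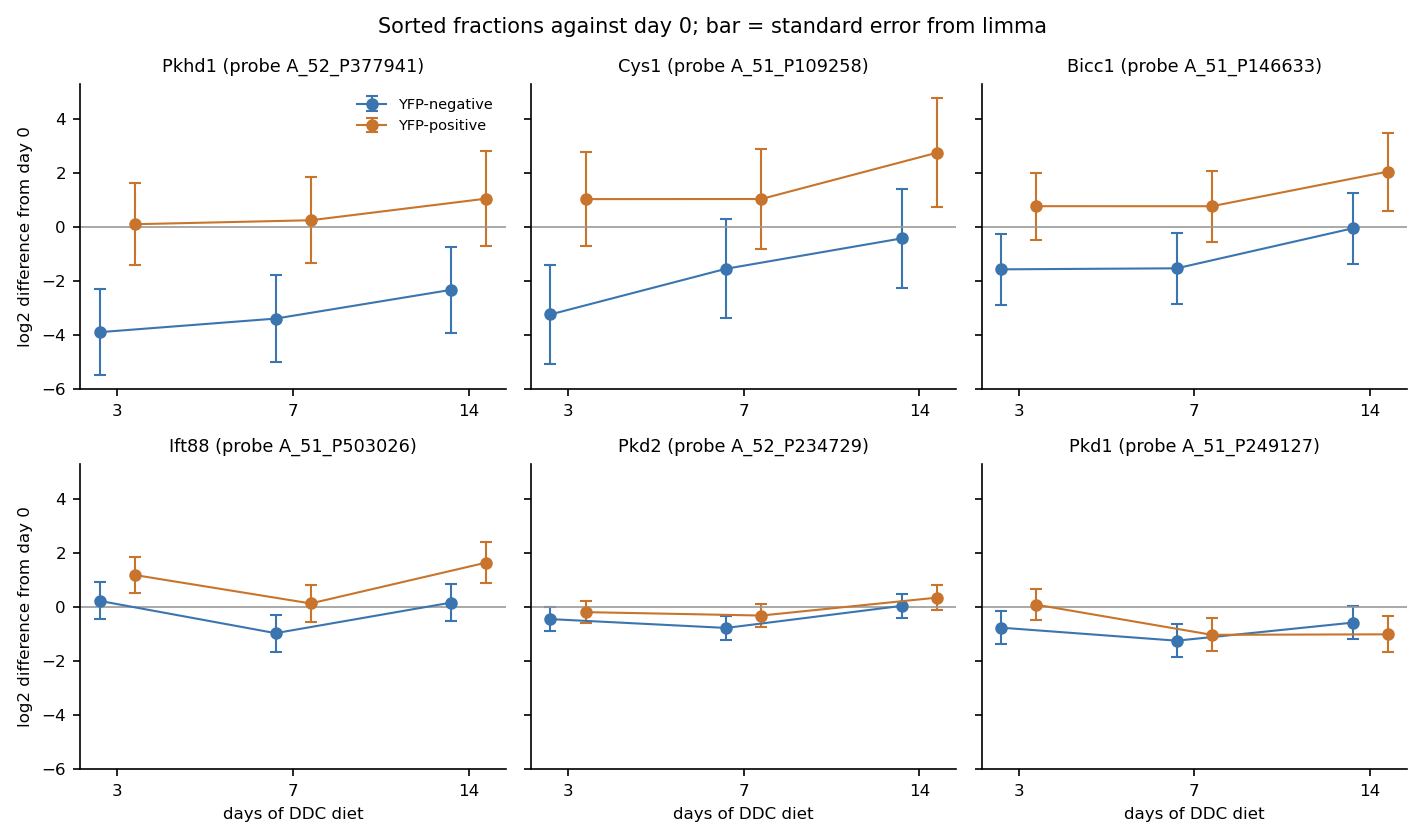
Log2 difference from day 0 (vertical axis) of the brightest probe of each gene in YFP-negative and YFP-positive cells after 3, 7 and 14 days of DDC diet (horizontal axis, days at even spacing); points are limma estimates, bars their standard errors and lines join a fraction's days. The YFP-positive points lie above the YFP-negative ones at each day for Pkhd1, Cys1, Bicc1, Ift88 and Pkd2, and for Pkd1 the order turns at day 14.

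The authors' deposited table gives signed fold changes and false discovery rates for the same 6 comparisons with day 0, by a method it does not state. In the authors' deposited table, 8 of the 12 probes had a false discovery rate below 5 percent in YFP-positive cells at day 14, where 16.3 percent of its 42175 entries had. In the other 5 comparisons of the authors' deposited table none of the 12 had, against 3.37, 3.62 and 1.64 percent of entries for YFP-negative cells at days 3, 7 and 14 and 1.94 and 10.6 percent for YFP-positive cells at days 3 and 7. The authors' deposited table lists Cys1 there at 11.3-fold with a rate of 0.86 percent, Bicc1 A_51_P356493 at 6.55-fold with 0.36 percent, and Ift88 at 3.06-fold with 2.67 percent. The authors' deposited table lists Pkhd1 A_52_P377941 there at 2.23-fold with 3.73 percent, and Pkd1 as a decrease, -1.82, with 4.43 percent. In the limma fit of the 20 arrays the corresponding differences were 2.75 ± 2.01, 2.62 ± 1.28, 1.64 ± 0.75, 1.05 ± 1.75 and -1.02 ± 0.67 on the log2 scale. For these listed probes the directions were the same, and none passed. With slide as a fixed block the value of Pkhd1 A_52_P377941 was -0.20. Pkhd1 A_52_P576007 and Pkd2 A_52_P858943 were increased in the authors' deposited table, at 1.985-fold and 1.857-fold, but had negative differences in limma. The limma fit used 2 of 3 YFP-positive day 14 samples and 2 of 4 day 0 samples. Whether the authors' deposited table rests on the same arrays was not tested.

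Between days 3 and 14 no member probe passed in either fraction. In limma 0 percent of all probes passed in YFP-negative cells, 0.0404 percent in YFP-positive cells, and 0 percent for the difference between the fractions. At an unadjusted p under 0.05, 0 of the 12 member probes were found in any of these, against 3.49, 6.87 and 3.17 percent of all probes. In YFP-negative cells Cys1 differed by 2.82 ± 1.64, the brightest Pkhd1 probe by 1.57 ± 1.43 and the brightest Bicc1 probe by 1.52 ± 1.18. Single arrays moved these values: leaving out YFP-negative day 3 array 1 or array 3 gave 0.65 and 4.81 for Cys1 and 0.73 and 2.91 for Pkhd1. For Pkhd1, leaving out YFP-negative day 14 array 1 or array 3 gave 2.84 and 0.63, and day 3 array 4 gave 1.06. In YFP-positive cells the same 3 differed by 1.72 ± 1.74, 0.95 ± 1.52 and 1.28 ± 1.25, and Pkd1 by -1.1 ± 0.58. The change with time did not differ detectably between fractions for any member (adjusted p = 0.9998 in limma for each of the 12 probes).

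Ordered by group mean, the brightest Pkhd1 probe ran from YFP-positive day 14 (0.52) through YFP-positive day 7 (-0.28), YFP-positive day 3 (-0.43) and day 0 (-0.54) to YFP-negative day 14 (-2.86), day 7 (-3.93) and day 3 (-4.43). Of the 6 neighbouring pairs in this order, only day 0 and YFP-negative day 14 did not overlap. Cys1 had the same order, from 1.29 to -4.70, with YFP-positive days 3 and 7 level at -0.43 each. For the brightest Bicc1 probe, from 2.78 to -0.83, it was the same but for YFP-positive days 3 and 7, level at 1.5 each. Every neighbouring pair overlapped for Cys1 and for this Bicc1 probe. The other Bicc1 probes had YFP-negative day 14 above day 0, and for A_51_P356493 day 0 and YFP-negative day 7 did not overlap. For Ift88 the order was another, from YFP-positive day 14 (1.20) and day 3 (0.73) to YFP-negative day 7 (-1.42), and only day 0 and YFP-negative day 7 did not overlap.

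The levels of some members followed each other from array to array. Over 20 arrays the brightest probes of Pkhd1 and Bicc1 correlated at r = 0.88, Pkhd1 and Cys1 at r = 0.87, and Bicc1 and Cys1 at r = 0.90. Within the 9 YFP-positive arrays these were 0.85, 0.87 and 0.91, and within the 9 YFP-negative arrays 0.85, 0.76 and 0.84. Pkd1 correlated with the 3 at r = 0.10 to 0.24. These values are descriptions over arrays that share slides, amplification and scaling.

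Markers of several cell types moved with the members. The mean level of 15 biliary marker genes, among them Krt19 and Epcam, ran from -1.93 to 0.85 on the YFP-negative arrays, from -0.69 to 2.71 on the YFP-positive arrays, and was -0.30 and 0.35 at day 0. Of the 15, all were higher over the mean of days, and 3 passed in limma, namely Cftr, Cldn7 and Ehf. This mean correlated over 20 arrays with Bicc1 at r = 0.94, Pkhd1 at 0.91, Cys1 at 0.90, Ift88 at 0.66, Pkd2 at 0.58 and Pkd1 at 0.15. Within the YFP-positive arrays alone, r was 0.97 for Bicc1, 0.90 for Pkhd1, 0.95 for Cys1 and 0.62 for Ift88. Within the YFP-negative arrays alone it was 0.92, 0.91, 0.85 and 0.27 in that order.

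The mean of 13 stellate and myofibroblast marker genes ran from 1.05 to 2.89 on the YFP-negative arrays and from -2.60 to 1.12 on the YFP-positive arrays, and 6 of the 13 fell in YFP-positive relative to YFP-negative cells in limma, Col1a1 by 4.95 on the log2 scale. In the remaining lists, no gene passed: hepatocyte markers had a median difference of -0.79 (4 of 11 positive), endothelial -0.63 (0 of 12), macrophage -0.58 (2 of 13), lymphoid -0.04 (5 of 11) and erythroid -1.94 (1 of 7). Other lists than the biliary one also moved with the members. Over 20 arrays Pkd2 correlated with the macrophage mean at r = -0.78 and the lymphoid mean at -0.71. Within the 9 YFP-positive arrays the macrophage mean correlated with the 6 genes at -0.90 (Pkd2) to -0.0018 (Pkd1). Pkhd1, Ift88, Cys1 and Bicc1 lay between, at -0.83, -0.80, -0.78 and -0.62. The endothelial mean did so there at -0.74 (Pkhd1) to 0.16 (Pkd1), with -0.73 for Cys1 and -0.70 for Bicc1. The stellate and myofibroblast mean correlated with the 6 genes at -0.64 (Pkhd1) to 0.10 (Pkd1) over 20 arrays. Within the 9 YFP-negative arrays it did so at 0.32 (Ift88) to 0.84 (Pkd2), with 0.79 for Bicc1 and 0.72 for Cys1. The part of these cell types in the members' differences was not tested.

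The counts of markers that passed moved with single arrays. Between 0 and 11 of the biliary genes passed when 1 array was left out, with 11 when YFP-positive day 3 array 3 was the one left out and 7 when it was YFP-negative day 3 array 3. The former array had been picked for its low mean of these same genes, and the latter had the highest such mean of its group. Between 1 and 9 of the stellate genes passed, with 9 without YFP-positive day 3 array 3 or array 4.

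**Figure D4:**
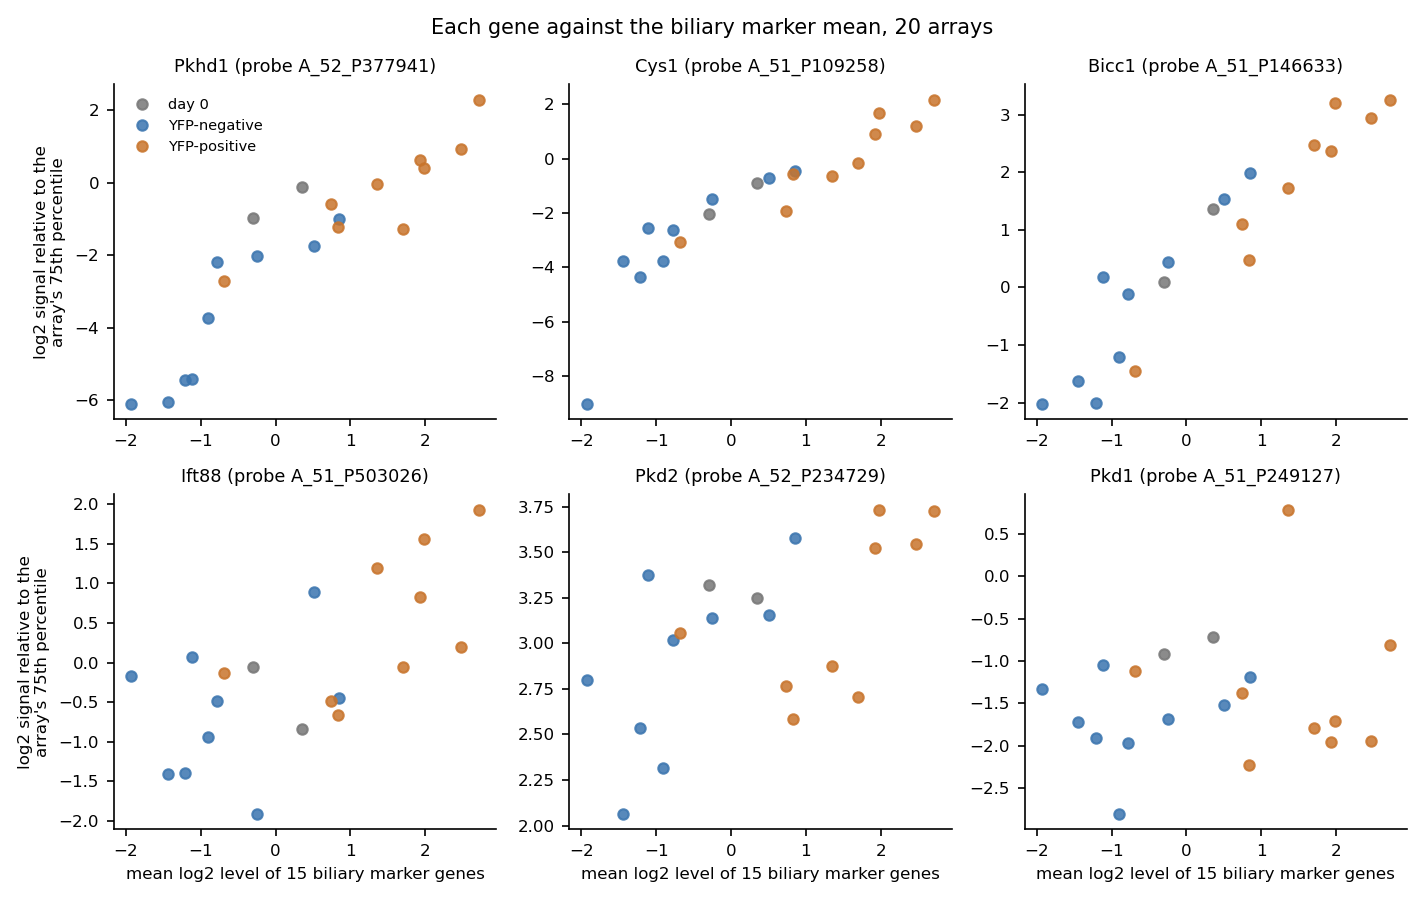
Level of the brightest probe of each gene (vertical axis, log2 signal relative to the 75th percentile of the array) against the mean level of 15 biliary marker genes (horizontal axis, same scale) on the 20 arrays; points are arrays, coloured as day 0, YFP-negative or YFP-positive. Over the 20 arrays Pkhd1, Cys1 and Bicc1 follow the marker mean at r = 0.91, 0.90 and 0.94, unlike Pkd1 at 0.15. Within the YFP-positive arrays Pkhd1, Cys1 and Bicc1 stand at 0.90, 0.95 and 0.97, and within the YFP-negative arrays at 0.91, 0.85 and 0.92.

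The genes most like each member were taken as the 5 with the highest r over the 20 arrays among 16545 named genes. For Cys1 these were Sox9 (r = 0.97), the transcription factor of duct cells, then Bche, Dsp, Spp1 and Cdcp1, the last at 0.94. Sox9 and Spp1 are in the biliary marker list. For Bicc1 they were Dcdc2a (0.96), a ciliary doublecortin, then Enah, Plxnb1 and Wwc1, with 1 of the 5 not reported here. For Pkhd1 they were Pdzk1ip1 (0.95), Kcnk1, Scara3, Capsl and Bex4.

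Ift88 was most like Fads3 (0.88), Magi1, Sgsm2, Anks3 and Lynx1, and Pkd2 most like Etl4 (0.92), Ptpn14, Il17rd, Mal and Tmem98. Pkd1 was most like Olfr788 (0.88), Rdh19, Hmgb4, Igf2bp1 and Mrcl, none of which is in a cilium or biliary list.

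The rest of the ciliary machinery was described with 8 further lists of 175 genes, of which 173 were measured. As in the 7 marker lists, each gene was represented by its brightest probe. Over the mean of days only 3 of the 173 passed in limma, all higher in YFP-positive cells. Foxj1, the master transcription factor of motile cilia, rose by 4.16 ± 0.85 (adjusted p = 0.0391), Dnali1, an axonemal dynein light chain, by 3.28 ± 0.58 (adjusted p = 0.0264), and Tmem231, a transition zone membrane protein, by 2.75 ± 0.51 (adjusted p = 0.0290). Day by day none of the 173 passed in limma.

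These calls moved with single arrays. Leaving out 1 array at a time, Foxj1 passed in 4 of 20 fits, those without array 3 of YFP-negative day 3, YFP-negative day 14, YFP-positive day 3 or YFP-positive day 7 (adjusted p between 0.00763 and 0.0814 over the 20). Dnali1 passed in 15 of 20, and was lost, at an adjusted p of up to 0.0607, without YFP-negative day 3 array 4, YFP-negative day 7 array 1, YFP-negative day 14 array 1 or array 2, or YFP-positive day 14 array 1. Tmem231 passed in 13 of 20, and was lost, at up to 0.0676, without YFP-negative day 3 array 4, YFP-negative day 7 array 4, YFP-negative day 14 array 1 or array 2, YFP-positive day 7 array 1, or YFP-positive day 14 array 1 or array 2. With slide as a fixed block none of the 3 passed, with differences of 4.53, 2.36 and 1.40 and adjusted p of 0.411, 0.473 and 0.540. With normexp, Foxj1, Dnali1 and Tmem231 stood at 3.75, 2.53 and 1.06 (adjusted p = 0.0576, 0.0583 and 0.352 in limma). They were lost as well with the replicate number as a block (adjusted p = 0.106, 0.0541 and 0.0583) and for days 7 and 14 alone (0.135, 0.0612 and 0.174), and Foxj1 also with fewer groups in the fit (0.0572).

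By list, motile cilium genes had a median difference of 0.94 (25 of 28 positive, 2 passed), ciliary membrane and sensing genes 0.62 (16 of 21, 0 passed), intraflagellar transport and motor genes 0.48 (25 of 31, 0 passed), and transition zone genes 0.35 (15 of 21, 1 passed). BBSome and chaperonin genes had 0.34 (12 of 14), other cystic disease genes 0.24 (15 of 23), Bicc1 partners and inversin compartment genes 0.23 (9 of 12) and basal body genes 0.13 (15 of 23), with 0 passed in each. Over all probes 0.654 percent passed, with a median of 0.01.

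In the lists without a call, the largest differences, other than those not reported here, are given as values. Among the cystic disease genes this was Glis3, a transcription factor mutated in cystic kidneys with liver disease, at 4.07 ± 0.90 (adjusted p = 0.0511 in limma). Sctr, the secretin receptor of cholangiocytes, stood at 3.06 ± 0.87 and Gli3, a Hedgehog pathway transcription factor, at -2.05 ± 0.88. Among transport genes, Wdr35 and Dync2li1 of retrograde transport stood at 1.89 ± 0.75 and 1.83 ± 0.83.

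Among Bicc1 partners and the inversin compartment, the kinase Nek8 stood at 1.08 ± 0.49. The BBSome subunits Ttc8 and Bbs1 stood at 1.26 ± 0.40 and 1.0 ± 0.66, and among basal body and ciliogenesis genes Rfx4 and Cep97 stood at 0.92 ± 0.66 and -0.91 ± 0.46. For none of the genes in these lists did the adjusted p fall under 0.05 in limma in the fit as described. Glis3 passed with quantile normalization, median scaling, probes above background on all arrays or array weights (adjusted p = 0.0415, 0.0412, 0.0496 and 0.0492). It also passed with array 3 or array 4 of YFP-positive day 3 left out, or array 3 of YFP-negative day 3 or day 14 (adjusted p = 0.00782, 0.0426, 0.0455 and 0.0480). Each array 3 among these had been set apart by its biliary marker mean.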

How the data were processed

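RNA was amplified, labelled with Cy3 and hybridised to 1-colour Agilent arrays of design 014868, per the labels' protocols and file headers. Feature Extraction is named as version 9.53 in the submitters' processing notes and 10.5.1.1 in the file headers. The processed signal is a background-subtracted intensity, per the file headers, not scaled between arrays. Per the file headers, the authors' deposited table holds, as a score, a signed fold change and a false discovery rate in percent. The method behind them is not given in the sources used here.

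Here outlier spots were left out of 43379 non-control spots, the 75th percentile of the array was subtracted from the log2 intensity, and spots of a probe were averaged. The 7 groups were fitted at the level of the probe in a single linear model (limma 3.58.1, statmod 1.5.0, under R 4.3.3) and Benjamini-Hochberg adjustment was made over 39595 probes in each of 13 comparisons, with a threshold of 0.05. The number of arrays limits the precision. The script was tested on simulated data.

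The members and gene lists were chosen with earlier results of these data known. Named list genes are up to 3 that passed in each list and fraction comparison, or else the 2 largest over the mean of days. Array names matched the reference by accession for 25097 probes, by symbol for 6333 and by synonym for 1640, and 8104 were unmatched. Alternatives covered background correction, scaling, filters, probes per gene, slide, replicate number, groups in the fit, outlier spots, array weights, days and leaving out each array. Foxl1 expression is not analysed here, and some other genes that the rules pick out are not reported here.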

Additional observations from a re-analysis of the deposited data

Results flagged for a closer look

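On the third Pkd2 probe, A_52_P858943, 1 array of YFP-positive day 3 lay far below the other 3, at -9.85, with a gap of 0.849 of the group's range above Dixon's critical value for 4 arrays. That spot was not well above background. The test was run on 12 sets of arrays, the 12 probes in the only group of 4. Chance alone exceeds the critical value about 1 time in 20 for each set, so a single such array over 12 sets is not rare.

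For Bicc1 A_51_P356493, every YFP-negative array at day 7 was below every day 0 array and every YFP-positive array above, a gap of 2.67 between the fractions. For Pkhd1 A_52_P377941, every YFP-negative array at day 14 was below and every YFP-positive array above both day 0 arrays, a gap of 3.38. Here the highest YFP-negative array, at -0.99, lay next to the lowest day 0 array, at -0.96. Every YFP-positive array was above every YFP-negative array for 4.17 percent of all probes at day 7 and 18.8 percent at day 14. The share with day 0 between the fractions was not counted, so these orderings are given as values only. The difference between the fractions' changes from day 0 was not tested apart from the comparison of the fractions, in which neither passed in limma (adjusted p = 0.827 and 0.425).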

How the results depend on the processing

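Over the mean of days, 0 member probes passed in limma as reported and under 11 of 13 alternative settings. The exceptions were quantile normalization with 2 (Pkhd1 A_52_P377941 at 3.71 and Bicc1 A_51_P356493 at 2.50) and median scaling with 1 (Pkhd1 at 3.66). Leaving out 1 array gave 0 to 6, namely 6 with YFP-positive day 3 array 3 left out, 3 with YFP-negative day 3 array 3 and 1 with YFP-negative day 14 array 3. Differences over those fits ran from 3.25 to 4.12 for Pkhd1 A_52_P377941, 1.76 to 3.05 for A_51_P322482, 2.01 to 2.64, 2.31 to 2.87 and 1.84 to 2.39 for the Bicc1 probes in the order above, and 2.62 to 4.00 for Cys1. In the other 12 comparisons no member passed under any setting run. The cause of these changes was not tested. The arrays whose removal let member probes pass had all been set apart by their biliary marker mean.

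The count of all probes that passed over the mean of days, 259 as reported (84 higher), was 54 with normexp (6 higher), 1156 with quantile normalization (761 higher), 525 with median scaling (236 higher), 162 with probes above background on all arrays, 171 with 1 probe per gene name, 3 with slide as a fixed block, 86 with the replicate number as a block, 156 with fewer groups in the fit and 51 for days 7 and 14 alone. When 1 array was left out it ran from 51 (YFP-negative day 14 array 1) to 1724 (YFP-positive day 3 array 3). It moved by more than 1.5 times also for either day 0 array (156 each), YFP-negative day 3 array 4 (63), day 7 array 1 (65), day 7 array 4 (111) or day 14 array 2 (93), and YFP-positive day 7 array 1 (88), day 7 array 4 (172), day 14 array 1 (94) or day 14 array 2 (168).

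To look for pairing, each group's mean was subtracted probe by probe, and the deviations that remained were correlated between arrays. The levels themselves were not correlated here. By these deviations, same-numbered arrays of different groups had r above 0.1 in 8 of 43 pairs (median 0.01, highest 0.378). Other pairs had it in 21 of 127 (median -0.01, highest 0.295). These counts mix the fractions of the same day with pairs from different days, so they cannot show whether the fractions of a day were paired. The fit as reported took the numbers not to pair the samples. With the replicate number as a block no member passed, with Pkhd1 A_52_P377941 at 3.71.

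Of all 156 differences of the 12 probes in the 13 comparisons, 54 changed sign under at least 1 setting. Among the 54 chosen for a closer account (the mean of days for every probe, 7 other comparisons for the brightest probe of each gene), 9 did. With slide as a fixed block these were Pkd1 (-0.019 over the mean of days, -0.17 at day 7, -0.13 for day 14 against day 3 in YFP-negative cells), Pkd2 A_52_P234729 (-0.061, and -0.37 and -0.065 at days 3 and 14) and Pkhd1 A_52_P377941 in YFP-positive cells at day 14 against day 0 (-0.20). Pkd1 was -0.11 for days 7 and 14 alone and -0.055 with normexp for day 14 against day 3 in YFP-negative cells, where Ift88 was 0.068 with median scaling and 0.25 with array weights. Leaving out 1 array, Pkd1 at day 7 ran from -0.15 to 0.41, and in YFP-negative cells Ift88 ran from -0.34 to 0.81 for day 3 against day 0 and from -0.65 to 0.50 for day 14 against day 3.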
